A study of Mus musculus with 25 samples.

Results

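The genes described here are Trem2, Tyrobp, Axl, Mertk, Clec7a, Itgax and Cst7, a set of surface receptors, the signalling adaptor of Trem2 and a protease inhibitor that are known from disease-associated microglia. They were taken by name, and all 7 were found among the 22439 gene symbols of the count files. Their levels were followed over time after spinal cord injury in microglia, in macrophages, and in dendritic-like and neutrophil-like cells.

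The study profiled sorted myeloid cells of the mouse spinal cord by 10x Genomics 3′ single-cell RNA sequencing, in 25 libraries that hold 30958 cells. Each library pools tissue of 1 to 3 mice, so the library is the replicate, and p-values measure the spread between libraries. Control mice (Ctrl) had a laminectomy alone, and injured mice were sampled 1, 2, 3, 10 or 21 days after the injury, times that are written D1 to D21 here.

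All mice, controls included, carried the inducible Cre allele Cx3cr1CreERT2, driven by the Cx3cr1 locus, and all sorted cells were YFP+. The mixed libraries (12) held every YFP+ cell of Cx3cr1CreERT2 mice. The other libraries came from Cx3cr1CreERT2:R26tdTomato mice, in which Cre also switches on a red reporter. There, RFP+/YFP+ cells form the resident libraries (5) and RFP-/YFP+ cells the infiltrating libraries (7), so a difference between mixed libraries and the others cannot be told apart from one of strain, whereas resident and infiltrating libraries share a strain. The 2 Ctrl libraries were 1 mixed (female mice) and 1 resident (male mice). The D1 libraries were 3 mixed (all male) and 2 infiltrating, the D2 libraries 2 mixed, 1 resident and 1 infiltrating, the D3 libraries 3 mixed (all male), 2 resident and 1 infiltrating, the D10 libraries 2 mixed (male), 1 resident (female) and 2 infiltrating, and the D21 libraries 1 mixed (female) and 1 infiltrating (male). A further D3 library has a title and a sort label that contradict each other. It is called D3_conflict 1 and entered no comparison of groups, except as an alternative of the reporter sort, and it is counted in the pooled clusters. D2_infiltrating 1 is labelled female, but its cells carry the sex code of the libraries labelled male. The label was used, and the calls that the other sex would change are given. The age of the mice is not given in the sources used here.

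As background, Trem2 is a lipid- and lipoprotein-binding receptor of microglia and macrophages. It has no signalling tail of its own and signals through the adaptor Tyrobp (DAP12), whose ITAM motif recruits the kinase Syk. Axl and Mertk are TAM receptor tyrosine kinases that recognise phosphatidylserine on dying cells through the bridging ligands Gas6 and Pros1. Clec7a (Dectin-1) is a C-type lectin receptor for beta-glucans that also signals through Syk, Itgax (CD11c) is the alpha chain of a beta-2 integrin, and Cst7 (cystatin F) inhibits cysteine cathepsins in the endolysosome. In models of amyloid pathology and neurodegeneration, the gain of Axl, Clec7a, Itgax and Cst7 in microglia has been described as dependent on Trem2.

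On GRCm38 with the GENCODE M21 annotation, Trem2 lies at chr17:48346401-48354147 (plus strand), Tyrobp at chr7:30413760-30417585 (plus), Axl at chr7:25757273-25788705 (minus), Mertk at chr2:128698956-128802894 (plus), Clec7a at chr6:129461591-129472779 (minus), Itgax at chr7:128129547-128150657 (plus) and Cst7 at chr2:150570415-150578944 (plus). The annotation lists Clec7a as a polymorphic pseudogene and the other 6 as protein coding. RefSeq promoter windows were found for 6 of the 7 genes, all but Tyrobp. The bases before the transcription start are shown for the 3 genes with the largest rises in microglia and for Mertk, the gene that fell at D1, D2 and D3, because these genes moved differently over the same time course. Sequences are from RefSeq on GRCm38.p6, written 5′ to 3′ on the strand of the gene; capitals mark an AP-1 motif, the only match to a searched motif in them.
Cst7, chr2:150570165-150570414, plus strand: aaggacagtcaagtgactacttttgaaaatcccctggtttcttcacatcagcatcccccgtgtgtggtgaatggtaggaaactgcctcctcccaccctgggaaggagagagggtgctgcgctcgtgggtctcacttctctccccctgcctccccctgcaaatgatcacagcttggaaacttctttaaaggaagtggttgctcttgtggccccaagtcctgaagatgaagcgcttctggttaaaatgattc
Clec7a, chr6:129472780-129473029, minus strand: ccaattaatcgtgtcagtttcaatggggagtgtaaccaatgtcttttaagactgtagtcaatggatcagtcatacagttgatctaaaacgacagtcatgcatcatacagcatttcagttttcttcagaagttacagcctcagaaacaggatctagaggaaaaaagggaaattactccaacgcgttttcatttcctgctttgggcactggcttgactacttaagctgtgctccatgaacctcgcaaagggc
Itgax, chr7:128129300-128129546, plus strand: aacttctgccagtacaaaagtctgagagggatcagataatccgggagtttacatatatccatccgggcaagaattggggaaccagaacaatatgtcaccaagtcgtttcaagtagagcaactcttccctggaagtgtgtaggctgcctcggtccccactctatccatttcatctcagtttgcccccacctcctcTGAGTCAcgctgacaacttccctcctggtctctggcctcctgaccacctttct
Mertk, chr2:128698665-128698914, plus strand: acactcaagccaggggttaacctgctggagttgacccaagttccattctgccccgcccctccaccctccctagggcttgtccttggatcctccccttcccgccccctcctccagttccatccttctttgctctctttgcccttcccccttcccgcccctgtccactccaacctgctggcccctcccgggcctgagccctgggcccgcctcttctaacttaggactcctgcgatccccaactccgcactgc

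The motifs were searched on both strands as exact letters. GAGGAAGT, a motif of PU.1 and related ETS factors, was in 3.20% of 32851 RefSeq windows and in none of the 6 member windows. TGACTCA or TGAGTCA (AP-1) was in 5.20% of windows and in 1 of the 6, that of Itgax, where TGAGTCA starts 56 bases before the RefSeq transcription start. The last 3 of those bases belong to the gene as GENCODE annotates it and are not shown. CACGTG (E-box) was in 7.15% of windows and in none of the 6. A match is a description of the sequence and not a binding site, and no match says only that these letters are absent from the window. The upstream stretch of Mertk was 63.6% G and C, that of Cst7 51.6%, that of Itgax 50.2% and that of Clec7a 42%.

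The libraries held 155 to 3800 cells, 486649 to 33204422 UMIs and a median of 1577 to 11233 UMIs per cell. The authors' 4 unnamed cell type codes were read from marker lists. The code called microglia (13289 cells) had 10 of 10 microglia markers high, that called macrophages (12841 cells) 7 of 9 macrophage and 3 of 8 monocyte markers, the dendritic-like code (2712 cells) 5 of 9 dendritic cell markers, and the neutrophil-like code (2116 cells) 7 of 7 neutrophil markers. All 1887 control cells carried the microglia code and formed cluster 1, which held no cell from an injured cord. In D21_mixed 1, 92.3% of the cells with the macrophage code lay in clusters 2 and 3, whose cells mostly carry the microglia code, so the macrophage results below are also given without these clusters. Cell barcodes shared by 2 libraries numbered 127. The 25 libraries lay in 7 sequencing pools, and only D2 and D10 libraries shared a pool with a control.

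Levels are CPM, UMI counts summed over the cells of 1 type in 1 library and scaled to the same total in every sum, for sums of at least 20 cells. They are compared for 1 gene at a time and not between genes, since no length is taken into account. Fewer cells that express a gene and less RNA of it per cell cannot be told apart in such sums. Fold changes are on the log2 scale with standard errors from edgeR's quasi-likelihood test with TMM scaling and time and sex as terms, and a gene is called at a Benjamini-Hochberg adjusted p below 0.05 over all genes tested. Under TMM the median of all genes in microglia stayed between -0.08 and -0.01 against Ctrl. When libraries were scaled by their total count alone, as CPM are, this median was -0.73 (D1), -0.40 (D2), -0.62 (D3), -0.60 (D10) and -0.94 (D21). The genes called higher and lower against Ctrl were 2577 and 2457 at D1 under TMM and 1282 and 4383 with the total count alone. At D2 they were 1896 and 1314 against 1265 and 2617, at D3 2168 and 1896 against 1176 and 3956, at D10 871 and 240 against 494 and 2161, and at D21 661 and 93 against 317 and 1845. The fitted rises are therefore larger, and the fitted falls smaller, than the ratios of the CPM values, and the total-count value is given where it ends a call or, in microglia, turns a direction.

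In microglia, the 7 genes followed different courses after injury. Cst7 and Clec7a rose against Ctrl at every time point, Tyrobp from D3, and Axl and Itgax at D10 and D21. With the total count alone the calls of Cst7 at D1, Clec7a at D1 and D2, Tyrobp at D3 and Axl at D10 and D21 were lost. Mertk fell at D1, D2 and D3 and was not called later, and Trem2 fell at D1, with the total count alone also at D2. Against Ctrl, the number of the 7 genes called was 4 (D1), 3 (D2), 4 (D3), 5 (D10) and 5 (D21). The D21 microglia are 1 library, so every standard error and p at D21 takes its spread from the libraries of the other time points and assumes that the D21 library varies as they do. The alternative with mixed libraries alone leaves 1 control, of female mice, while its D1, D3 and D10 libraries are all male. With sex as a term, its comparisons of D1, D3 and D10 with Ctrl rest on D2_mixed 1 (female) and D2_mixed 2 (male, 23 microglia). The same test called 46.6% (D1), 29.7% (D2), 37.6% (D3), 10.3% (D10) and 6.98% (D21) of all 10801 genes tested. The member counts at D1 to D3 stand beside backgrounds of 29.7% to 46.6%, whereas 5 of 7 at D10 stand beside 10.3%, and 5 of 7 in the single D21 library beside 6.98%.

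**Figure D1:**
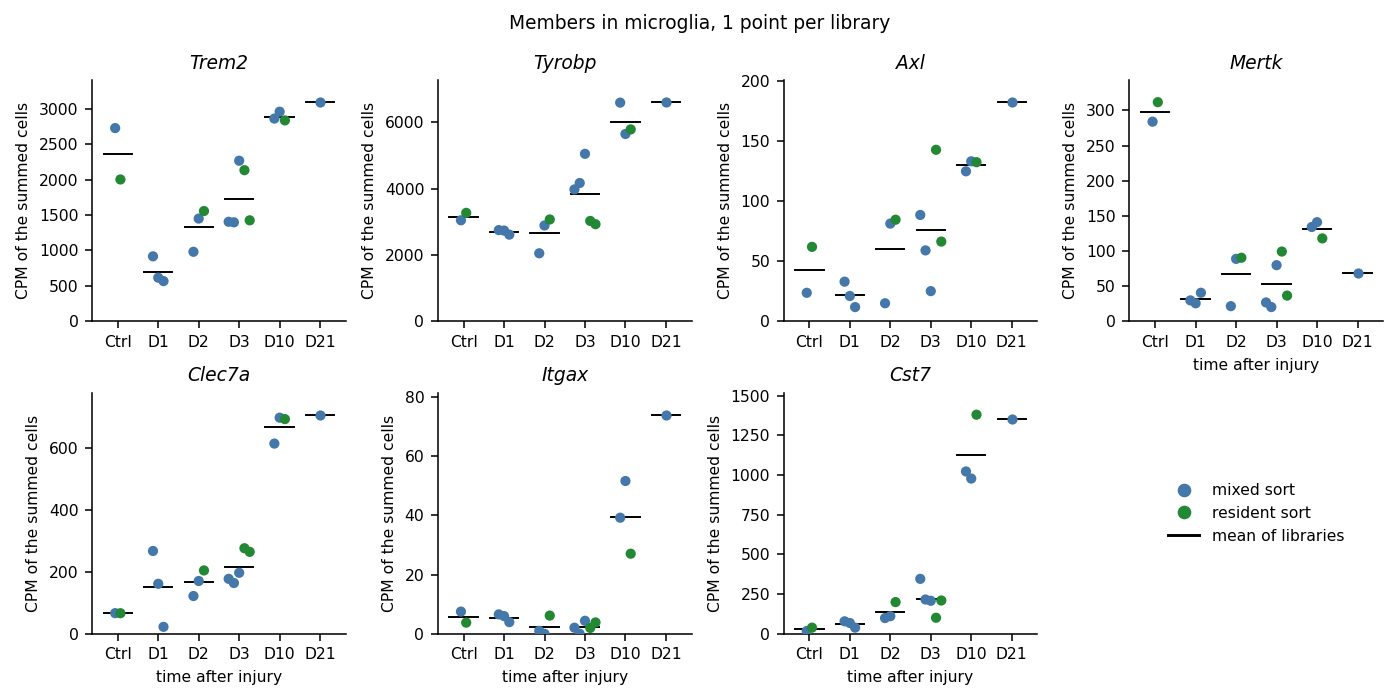
CPM of the 7 genes (linear axes from 0) in microglia of each library by time point, 1 panel per gene, with the sort of the library shown by colour and the mean by a line. Cst7 goes from 17.9 and 38.8 in the controls to 978 to 1381 at D10, whereas Mertk goes from 284 and 312 to 25.6 to 40.6 at D1.

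Trem2, the receptor, stood at 2729 and 2003 CPM in the Ctrl microglia. The D1 libraries had 917, 616 and 568 CPM, all below both controls. The D2 values of 982, 1451 and 1557 were also below the controls. At D3 the values ran from 1398 to 2268 with a median of 1426 and overlapped the controls. At D10 they were 2863, 2960 and 2837, and the single D21 library had 3094, all above both controls. The fitted change was -1.004 ± 0.30 (SE) at D1 (edgeR adjusted p = 0.0108) and -0.48 at D2 (adjusted p = 0.211), which was called with the total count alone (-0.82, adjusted p = 0.0417). At D10 the change was 0.89 ± 0.29 (adjusted p = 0.064) and at D21 1.22 ± 0.38 (adjusted p = 0.0587), so neither was called. From D1 to D3 Trem2 rose by 1.14 ± 0.24 (adjusted p = 0.00345). The fall at D1 was no longer called without Ctrl_mixed 1 (-0.78, adjusted p = 0.0935) or with mixed libraries alone, which leaves 1 control (-1.53, adjusted p = 0.0969), and the D10 value was called with the pool as a term (0.85, adjusted p = 0.0103), with DESeq2 (0.79), and without D2_mixed 1 or D3_mixed 3. The D21 value was called with DESeq2 (1.12), without cluster 2 (1.26, adjusted p = 0.0494) and without any of 7 libraries (D1_mixed 1, D1_mixed 3, D2_mixed 1, D2_resident 1, D3_mixed 1, D3_mixed 3 and D3_resident 1; adjusted p down to 0.043). With the total count alone the D3 change of 0.14 became -0.44, and neither was called.

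Tyrobp, the adaptor of Trem2, had 3044 and 3267 CPM in the controls and 2733, 2611 and 2748 at D1. At D2 the values were 2049, 2887 and 3068, all below the higher control. The D3 libraries ran from 2925 to 5045 with a median of 3974 and overlapped the controls, while D10 (6588, 5643 and 5781) and D21 (6601) lay above every earlier library. Tyrobp rose by 0.76 ± 0.23 at D3 (edgeR adjusted p = 0.0157), by 1.46 ± 0.25 at D10 (adjusted p = 0.000957) and by 2.07 ± 0.31 at D21 (adjusted p = 0.000383). At D1 and D2 the changes of 0.35 and 0.03 were not called, and they became -0.38 and -0.31 with the total count alone. The D3 rise was not called with the total count alone (0.18, adjusted p = 0.524), with no low-count filter (0.67, adjusted p = 0.0648), without Ctrl_mixed 1 (0.89) or without Ctrl_resident 1 (0.63). The D10 rise was called whichever library was left out and the D21 rise whichever of the 16 libraries of other time points was, but with mixed libraries alone neither the D3 nor the D10 rise was called (0.86 and 1.33, adjusted p = 0.234 and 0.187).

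Axl, a TAM receptor, had 23.8 CPM in Ctrl_mixed 1 and 62.0 in Ctrl_resident 1. The D1 values were 33.0, 21.1 and 11.8, and the D2 values 15.0, 81.4 and 84.7. The lowest, median and highest at D3 were 25.1, 66.4 and 143. At D10 the libraries lay close together at 125, 133 and 133, and D21 had 183. The D10 and D21 libraries were above both controls, whereas the D1, D2 and D3 ranges overlapped them. Axl rose by 2.23 ± 0.65 at D10 (edgeR adjusted p = 0.0351) and by 3.17 ± 0.83 at D21 (adjusted p = 0.0245), and by 1.70 ± 0.55 from D1 to D3 (adjusted p = 0.0381). The controls themselves differed more than the D10 libraries did, and the D10 call was lost without any 1 of 6 libraries. Those were Ctrl_mixed 1, Ctrl_resident 1, D2_mixed 2, D10_mixed 1, D10_mixed 2 and D10_resident 1 (1.68 to 3.02 over all 17 libraries left out, adjusted p up to 0.393). The D21 call was lost without Ctrl_mixed 1 (2.44, adjusted p = 0.362), and both were lost with the total count alone (1.64 and 2.28). The D10 call was also lost with mixed libraries alone (0.82, adjusted p = 0.815), with at least 50 cells (2.18) and without cluster 2 (2.20). At D3 the change of 1.40 ± 0.61 was not called (adjusted p = 0.0795) but passed without D2_mixed 1 or D3_mixed 3 (adjusted p down to 0.0225), with no low-count filter (1.32) and with a sort term (1.43).

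Mertk, the other TAM receptor of the set, fell below its control level early and was higher again at D10. The controls had 284 and 312 CPM. At D1 the values were 29.8, 25.6 and 40.6, and at D2 21.6, 88.8 and 90.4. At D3 they ran from 20.3 to 99.3 with a median of 36.6. The D10 libraries, at 134, 141 and 118, lay above all D1 to D3 libraries and below both controls, and D21 had 69.2. Mertk fell by 2.54 ± 0.54 on the log2 scale at D1 (edgeR adjusted p = 0.00108), by 1.92 ± 0.54 at D2 (adjusted p = 0.0141) and by 1.95 ± 0.46 at D3 (adjusted p = 0.00369). The changes at D10 (-0.62, adjusted p = 0.492) and D21 (-1.18, adjusted p = 0.367) were not called. The D1 and D3 falls were called whichever library was left out, and the D2 fall was lost without Ctrl_mixed 1, Ctrl_resident 1 or D2_mixed 1 (-1.24 without the last of these). With the pool as a term the D3 change was -0.27 and not called (adjusted p = 0.923), and with mixed libraries alone it was -3.86 and not called (adjusted p = 0.0612).

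Clec7a, the lectin, had 66.6 and 66.4 CPM in the controls. The D1 libraries were spread widely, at 267 and 161 against 22.5 in D1_mixed 3, which was below both controls. The D2 values were 122, 170 and 204, and the D3 values 164 to 276 with a median of 197. At D10 they were 613, 697 and 692, and 707 at D21, so that every library from D2 on was above the controls. Clec7a rose by 1.88 ± 0.62 at D1 (edgeR adjusted p = 0.0203), by 1.67 ± 0.61 at D2 (adjusted p = 0.0455) and by 2.29 ± 0.59 at D3 (adjusted p = 0.00653). The late rises were 3.91 ± 0.66 at D10 (adjusted p = 0.000957) and 4.27 ± 0.76 at D21 (adjusted p = 0.00158). The D10 rise was called whichever library was left out and the D21 rise whichever of the other 16 libraries was. The D1 call was lost without Ctrl_mixed 1, Ctrl_resident 1 or D1_mixed 1 (1.26 without the last), and the D3 call without either control (adjusted p up to 0.067). The D2 call was lost when any library was left out (adjusted p up to 0.208) except D1_mixed 1, D1_mixed 3, D21_mixed 1 and the D3_mixed libraries. With the total count alone the D1 (1.18) and D2 (1.32) changes were not called. With mixed libraries alone Clec7a was not called at any time point (adjusted p from 0.0625 at D21 to 0.535 at D3), and with the pool as a term it was not called at D2 or D3 (2.01 and 2.73, adjusted p = 0.156 and 0.394). The D2 call was lost as well with median-of-ratios scaling, with at least 50 cells and without cluster 2.

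Itgax was near the limit of detection in early microglia. The controls had 7.50 and 3.78 CPM, from 42 and 7 UMIs. The D1 libraries had 3.95 to 6.56 CPM, the D2 libraries 0 to 6.16 and the D3 libraries 0 to 4.40, all within or close to the control values and resting on 48 UMIs or fewer per library. At D10 the values were 39.2, 51.6 and 27.1, from 192, 221 and 61 UMIs, and D21 had 74.0 from 340 UMIs. The D10 and D21 libraries lay above all earlier ones. Itgax rose by 3.02 ± 0.52 at D10 (edgeR adjusted p = 0.00115) and by 4.64 ± 0.60 at D21 (adjusted p = 0.000103). At D1 the change was 0.16 and not called, and it was -0.54 with the total count alone. Without Ctrl_resident 1 the D10 value was 2.19 with an adjusted p of 0.0543, and without Ctrl_mixed 1 it was 4.29. With mixed libraries alone it was 7.70 and not called (adjusted p = 0.604). The D21 rise was called whichever of the other 16 libraries was left out; with mixed libraries alone it compares 1 library with 1.

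Cst7 had the largest fitted rise of the 7 genes at D10 and D21. It stood at 17.9 and 38.8 CPM in the controls and at 78.8, 68.1 and 39.0 at D1. The D2 values were 99.3, 111 and 199.9, and the D3 values 101 to 346 with a median of 210. At D10 they reached 1023, 978 and 1381, and 1356 at D21. No library after injury fell below the higher control, and the D10 and D21 libraries lay above all earlier ones. The fitted rises were 1.66 ± 0.44 at D1 (edgeR adjusted p = 0.00574), 2.67 ± 0.45 at D2 (adjusted p = 0.000459) and 3.40 ± 0.45 at D3 (adjusted p = 4.54e-05). They were 5.96 ± 0.52 at D10 (adjusted p = 1.68e-06) and 6.82 ± 0.59 at D21 (adjusted p = 1.44e-06). The rises from D2 on were called whichever library was left out, at D21 whichever of the other 16. At D1 the call was lost without Ctrl_mixed 1 (1.41, adjusted p = 0.0665) and with the total count alone (0.93, adjusted p = 0.0767).

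**Figure D2:**
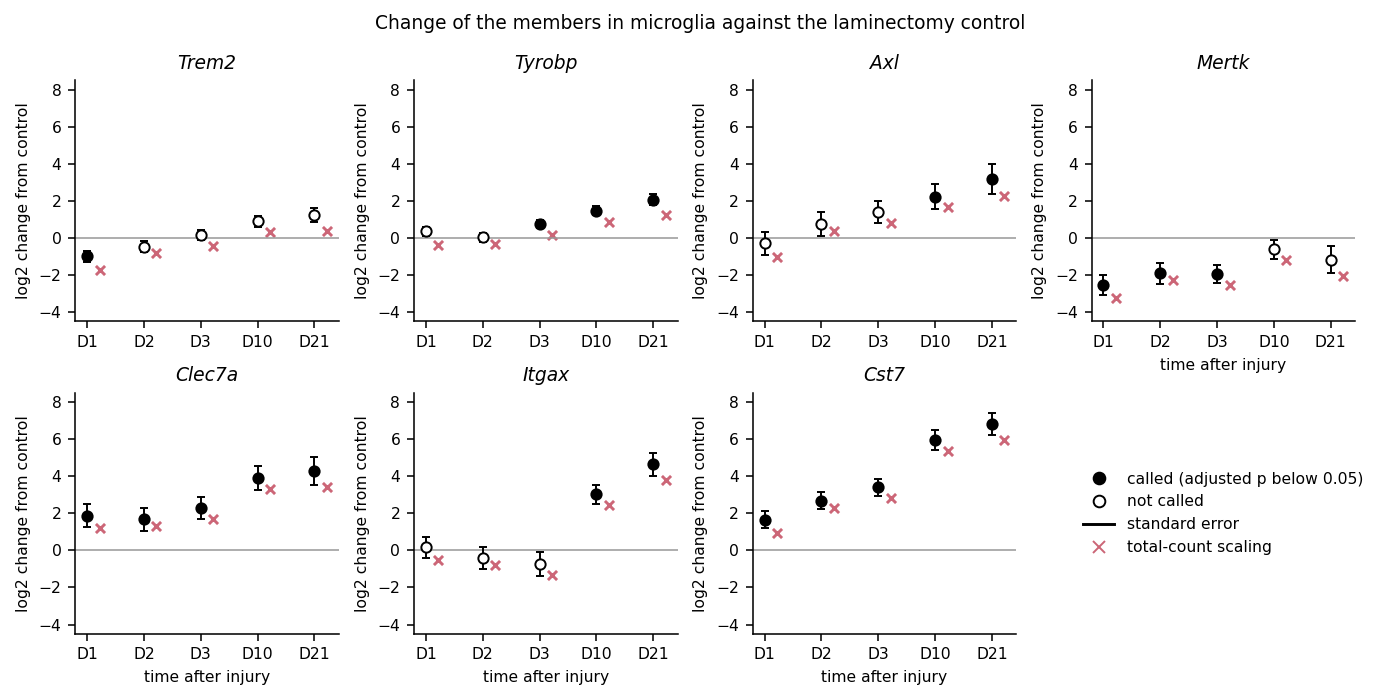
Fitted log2 fold change against Ctrl (y axis) of the 7 genes in microglia at each time point, with standard errors as bars, filled points where the adjusted p was below 0.05, and crosses for the values with the total count alone. Cst7, Clec7a, Tyrobp, Axl and Itgax have filled points above 0 at D10 and D21, and Mertk has filled points below 0 at D1, D2 and D3.

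The D10 rises could also be read within a sequencing pool, since Ctrl_mixed 1 shared its pool with both D10_mixed libraries and Ctrl_resident 1 with D10_resident 1. The ratio of CPM values, D10 over Ctrl, was 57.3, 54.8 and 35.5 for Cst7, 9.20, 10.5 and 10.4 for Clec7a, and 5.23, 6.88 and 7.16 for Itgax. For Axl it was 5.26, 5.61 and 2.14, and for Tyrobp 2.16, 1.85 and 1.77. For Trem2 it was 1.05, 1.08 and 1.42, and for Mertk 0.472, 0.497 and 0.378. In all 3 pairs the first 5 of these genes were thus higher at D10, Trem2 was higher by 1.42 times or less, and Mertk was lower. The pool of Ctrl_resident 1 also held D2_resident 1, where Cst7 was 5.15 and Clec7a 3.08 times the control value and Mertk 0.290 times. No pool held both a control and a D1, D3 or D21 library, so for those time points time and pool cannot be told apart within a pool.

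Between injury time points, 3 of the 7 genes rose from D1 to D3 (Trem2, Axl and Cst7), beside 18.8% of all genes called. Cst7 rose by 1.74 ± 0.34 (edgeR adjusted p = 0.00228). The Axl call was lost without any of 7 libraries (D1_mixed 2, D1_mixed 3, D3_mixed 1, D3_resident 1, D3_resident 2, D10_mixed 1 and D10_mixed 2; 1.27 to 2.07 over all libraries left out, adjusted p up to 0.134). It was also lost with a sort term (1.28, adjusted p = 0.0787) and with mixed libraries alone (1.15, adjusted p = 0.143). From D3 to D10, 4 of the 7 rose (Tyrobp, Clec7a, Itgax and Cst7), beside 6.88% of all genes. Itgax rose by 3.75 ± 0.47 and Cst7 by 2.56 ± 0.32 (both adjusted p = 0.000338), Clec7a by 1.62 ± 0.44 (adjusted p = 0.0359) and Tyrobp by 0.70 ± 0.19 (adjusted p = 0.0341). Mertk (1.33 ± 0.42, adjusted p = 0.0616) and Trem2 (0.75 ± 0.22, adjusted p = 0.0512) were not called, but each was with DESeq2 and without D2_mixed 1, D3_resident 1 or D3_mixed 3. D3 and D10 libraries shared no pool. With the pool as a term none of the 7 was called from D3 to D10, nor any of all 10801 genes, and the fitted values of Tyrobp (-0.05) and Itgax (-0.27) turned. The Clec7a call was lost without any D10 library, D1_mixed 2, D3_mixed 1, D3_mixed 2 or D3_resident 2 (adjusted p up to 0.18), and the Tyrobp call without any of these, D1_mixed 1 or D3_resident 1 (adjusted p up to 0.147). Both calls were lost with mixed libraries alone (1.86 and 0.47), without clusters 6, 7 and 10 (1.45 and 0.57) and without cluster 2 (1.54 and 0.63). Itgax and Cst7 were called whichever library was left out.

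The share of microglia with at least 1 UMI of a gene was set beside these levels. Each cell was thinned to 2000 UMIs and shallower cells were left out (35 of 1887 in Ctrl, 805 of 3308 at D1, 361 of 2024 at D2, 1205 of 2165 at D3, 834 of 2710 at D10 and 116 of 1041 at D21). D2_mixed 2 kept fewer than 20 cells and enters the unthinned shares alone. Mean shares over libraries for Cst7 were 4.62% (Ctrl), 10.6% (D1), 22.5% (D2), 30.1% (D3), 66.7% (D10) and 77.8% (D21). Without thinning they were 8.48%, 16.2%, 35.7%, 31.6%, 74.4% and 84.6%, lower at D3 than at D2, unlike the level. The Clec7a shares were 9.98%, 18.6%, 22.2%, 30.1%, 55.2% and 64.0% in the same order. For Itgax the share was 1.01% in Ctrl and 0.376% at D3, and it reached 6.37% ± 2.17 (SD, n = 3) at D10 and 11.9% at D21. Itgax was thus seen in a minority of cells even at D10 and D21, whereas Cst7 and Clec7a were seen in most.

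The Mertk share went from 43.6% in Ctrl to 5.67% at D1 and 21.0% at D10, and was 9.37% at D21. For Trem2 the share was 97.3% in Ctrl, 67.2% at D1 and 95.6% at D10, so most microglia had a UMI of it throughout, and its share was not above Ctrl at D10, where its level was. Axl went from 7.63% in Ctrl to 3.84% at D1 and 20.9% at D10. Tyrobp was seen in 91.6% to 99.8% of microglia at every time point. Without thinning the Mertk shares were 64.5% in Ctrl, 9.61% at D1 and 29.2% at D10, those of Trem2 99.3%, 75.6% and 93.3%, those of Axl 14.0%, 6.82% and 31.0%, those of Clec7a 16.2%, 25.1% and 66.5%, and those of Itgax 2.20%, 2.06% and 10.8%.

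Neutrophil-like cells were set beside the microglia for free RNA, since neutrophils are not known for Trem2, Axl or Mertk. Their libraries had medians of 2321 to 3118.5 UMIs per cell kept, against 2581 to 4688 in the microglia. At 2000 UMIs the neutrophil-like share at D1 was 0.118% for Cst7, 0.629% for Axl, 0.554% for Mertk and 4.73% for Trem2. The microglial shares of Cst7, Axl, Mertk and Trem2 were above these values at every time point. These neutrophil-like cells came from D1_infiltrating 1 and D1_infiltrating 2, which held 7 microglia each. Their shares therefore do not bound free microglial RNA in the resident and mixed libraries. For Clec7a, which neutrophils are known to express, the D1 share was 27.1%, and for Itgax it was 5.29%. Whether neutrophil-like UMIs of Itgax are free RNA was not tested. The Itgax shares of microglia from Ctrl to D3 lay below that level and are not read as expression. At D10 the Itgax share of microglia (6.37%) lay between the neutrophil-like shares of D1 and D2 (6.80%), and at D21 it was above both.

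The microglia markers also changed over time in these cells, with the highest sum in Ctrl, where Cst7 and Clec7a had their lowest means. The summed level of the 10 markers in microglia was 26916 to 30480 CPM in Ctrl, 4837 to 9153 at D1 and 7140 to 13330 at D2. It was 11047 to 14748 at D3, 14480 to 16134 at D10 and 11658.5 at D21. None of the 10 was at 0 in any of these libraries. The 9 macrophage markers summed to 2.86 to 19.96 CPM in Ctrl microglia, with 3 to 5 of them at 0, and to 407 to 657 CPM at D1, 435 to 866 at D2, 293 to 1145 at D3, 422 to 589 at D10 and 609.9 at D21. Their range at D10 thus lay within that at D3, while Tyrobp, Clec7a, Itgax and Cst7 rose from D3 to D10. The part of macrophage RNA or of cells near the border between the codes in the changes of the 7 genes was not tested. In all 14 libraries that held both types, Cst7 and Trem2 were lower in macrophages than in microglia. Itgax was higher in macrophages in 11 of them, Axl in 5, Mertk and Tyrobp in 4 each and Clec7a in 3.

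The other genes of the programmes to which the 7 belong were counted in lists that leave the members out. Of 7 further genes of the second stage of the disease-associated programme, 7 rose and 0 fell in microglia at D10, with a median of 2.22 against -0.01 for all genes, of which 8.06% rose and 2.22% fell. Among them Lpl, a lipoprotein lipase, rose by 4.46 and Lilrb4a, an inhibitory receptor, by 4.67. Of 6 genes of the first stage 5 rose, including the lipoprotein Apoe (5.69) and lysozyme Lyz2 (3.34). Of 12 homeostatic microglia genes 6 fell and 0 rose, with a median of -1.33. The purinergic receptor P2ry12 fell by 2.29 and Selplg by 1.85. With the total count alone these counts were 5 of 7, 5 of 6 and 6 of 12.

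Of 12 genes of ITAM and Syk signalling, Hcst (DAP10, the other adaptor paired with Trem2), which rose by 2.34, was the single gene called at D10. With the total count alone 6 of these 12 genes fell. Of 9 other receptors that couple to Tyrobp or are paired with such receptors, Cd300ld rose by 5.37, Cd300lb by 3.27 and Siglech fell by 1.60. Of the 4 tested genes among the TAM ligands Gas6 and Pros1, the receptor Tyro3 and the sheddases, none was called at D10 (with the total count alone 1 fell). Of 10 genes of apoptotic cell uptake, the scavenger receptor Cd36 rose by 2.78, and the integrin Itgav and the engulfment factor Elmo1 fell by 1.24 and 1.05. Of 3 other beta-2 integrin genes Itgal rose by 4.51. Of 7 C-type lectins 3 rose and 1 fell, among them Clec4n by 6.91, Clec4d by 6.78 and, downwards, Clec4a2 with -1.86. Of 8 cystatins and cysteine cathepsins 4 rose and none fell, among them Cstb by 2.89 and Ctsb by 2.05, whereas with the total count alone 3 rose and 2 fell.

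At D1 11 of the 12 homeostatic genes fell too, among them Cx3cr1 by 6.43 and P2ry12 by 4.36. At that time point 23.9% of all genes rose and 22.7% fell. Of the ITAM and Syk genes 4 of 12 fell (7 with the total count alone) and none rose, among them Malt1 by 3.21 and Inpp5d by 2.07. Of the 9 other receptors of the Tyrobp group 5 rose and 2 fell, led by Trem1 (7.14) and Trem3 (6.96), receptors of the same family as Trem2, while Siglech fell by 3.77 and Cd33 by 2.42. Of the 7 further second-stage genes 4 rose and none fell. The TAM ligand Gas6 rose by 1.13, the 1 gene of its list that was called. With median-of-ratios or total-count scaling no gene of that list rose, and 1 and 3 fell.

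Macrophages were compared with D1, because control libraries held none. Axl and Cst7 rose at D10 and Cst7 at D21, and no member was called at D2 or D3 with all libraries. The background was 14.4% of 8577 genes at D10 and 3.56% at D21. At D2 and D3 edgeR called 0 of all genes (0%), with 123 and 611 genes at an unadjusted p below 0.05. From D3 to D10 0.676% of genes were called and no member. With mixed libraries alone, which leaves 1 library at D3, the fitted changes at D3 were 3.09 for Trem2 and 1.30 for Tyrobp. From D3 to D10 the same libraries gave -2.25 for Trem2, -1.20 for Tyrobp and 2.98 for Cst7. With all libraries these changes were -0.22, -0.23 and 2.21. With all libraries DESeq2 called 0, 0 and 0 of the 7 genes at D2, at D3 and from D3 to D10.

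**Figure D3:**
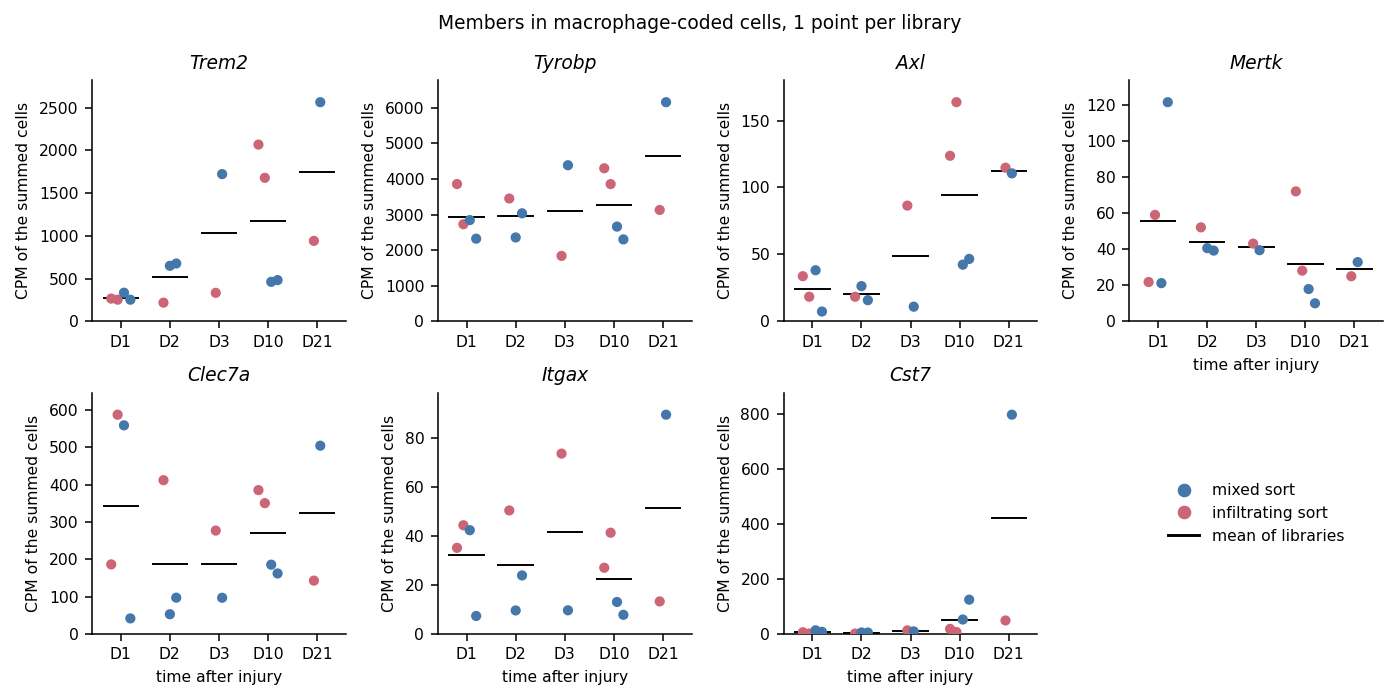
CPM of the 7 genes (linear axes from 0) in macrophages of each library of the comparison by time point, with the sort shown by colour and the mean by a line. At D10 the infiltrating libraries have 1680 and 2069 CPM of Trem2 and the mixed libraries 462 and 483, and Cst7 has the reverse order.

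Trem2 had 266, 253, 335 and 253 CPM in D1 macrophages and 218, 650 and 677 at D2. The D3 libraries had 333 and 1723, the D10 libraries 2069, 1680, 462 and 483, and the D21 libraries 942 and 2566. All D10 and D21 libraries were above all D1 libraries. The fitted change was 2.09 ± 0.68 at D10 (edgeR adjusted p = 0.0533) and 2.72 ± 0.82 at D21 (adjusted p = 0.0748), so neither was called. The D10 value passed the threshold with DESeq2 (2.13), with D2_infiltrating 1 taken as male (2.04), with 5 other alternatives and without D2_infiltrating 1, D3_infiltrating 1, D3_mixed 3 or D21_mixed 1 (1.53 to 2.33 over all libraries left out). The D21 value passed with DESeq2 (2.78), with 3 other alternatives and without D3_infiltrating 1 or D3_mixed 3. Within D10 both infiltrating libraries were above both mixed ones.

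Axl had 33.7, 18.4, 38.1 and 7.30 CPM at D1 and 124, 164, 42.3 and 46.6 at D10, where every library was above every D1 library. It rose by 2.08 ± 0.56 (edgeR adjusted p = 0.0269), a call that was lost with mixed libraries alone (1.34, adjusted p = 0.144). At D21 the libraries had 115 and 111, with a change of 2.36 ± 0.65 that was not called (adjusted p = 0.0576). It passed with DESeq2 (2.41), with 3 other alternatives and without D3_infiltrating 1 or D3_mixed 3. Cst7 had 5.68, 1.06, 12.7 and 7.30 CPM at D1. For both genes the last 2 D1 values are of D1_mixed 1 and D1_mixed 3, whose macrophage sums hold 28 and 54 cells. Such low values there rest on few UMIs. The D10_mixed sums hold 53 and 68 cells and the D21 sums 89 and 78. At D10 Cst7 had 17.8 and 6.61 CPM in the infiltrating and 52.1 and 124 in the mixed libraries, and at D21 48.6 and 797. It rose by 3.68 ± 1.17 at D10 (adjusted p = 0.0487) and by 6.92 ± 1.36 at D21 (adjusted p = 0.0184). The D10 call was lost with the total count alone (3.62, adjusted p = 0.0532), with at least 50 cells (3.92) and without cluster 2 (4.24), and the D21 call with the pool as a term (3.50, adjusted p = 0.267).

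These calls were sensitive to single libraries and to the cells included. The summed microglia markers in macrophages were 299 to 1408 CPM at D1, 1006 to 3377 at D10 and 2366 to 4782 at D21, so they moved with Cst7; their part in its rise was not tested. Without clusters 2 and 3, no member was called at D10 (Axl 2.04, edgeR adjusted p = 0.0988, and Cst7 3.05, adjusted p = 0.0800). Of all 11576 genes tested there, 366 were called higher and 472 lower. At D21, where D21_infiltrating 1 alone was left, no member was called either (Cst7 3.65). Without D21_mixed 1, Cst7 at D21 was 2.91 and not called (adjusted p = 0.234), and it was also not called without D1_infiltrating 2. At D10 the Cst7 call was lost without any of 7 libraries (2.68 without D10_mixed 2) and the Axl call without any of 4 (1.41 without D10_infiltrating 2, adjusted p up to 0.1002). The 7 are D1_infiltrating 1 and 2, D1_mixed 1 and 3, D2_mixed 1, D10_mixed 1 and D10_mixed 2, and the 4 are D1_infiltrating 2, D1_mixed 3, D10_infiltrating 1 and D10_infiltrating 2.

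With all libraries, the other 4 genes were not called in macrophages at any time point. With mixed libraries alone, Mertk was called lower at D10 (-2.38, edgeR adjusted p = 0.0269), beside the Tyrobp values above. Tyrobp had 2321 to 3856 CPM at D1 and 2301 to 4299 at D10 (0.21, edgeR adjusted p = 0.766). Clec7a had 41.4 to 588 CPM at D1 and 162 to 386 at D10 (-0.43, adjusted p = 0.742), Mertk 21.2 to 122 and 9.98 to 72.1 (-0.84, adjusted p = 0.389), and Itgax 7.30 to 44.4 and 7.76 to 41.3 (-0.60, adjusted p = 0.621). For each of the 4 the ranges at D1 and D10 overlapped. In the list of homeostatic microglia genes 4 of 11 rose in macrophages at D10, with Gpr34 at 7.81 and Olfml3 at 2.95, and none fell, beside 7.31% of all genes that rose and 7.04% that fell. Both genes are also among the microglia markers whose sum moved in these cells, and 10.9% to 60.3% of the macrophages of the D10 libraries compared lay in clusters 2 and 3. Without those clusters 1 of 12 genes of the list rose. Of the 7 further second-stage genes none rose and 3 fell, among them the chemokine Ccl6 by 3.88 and the growth factor Csf1 by 3.60, and of the 6 further first-stage genes Apoe rose by 3.52 and the ferritin heavy chain gene Fth1 fell by 1.77.

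The difference in the D10 to D1 change between macrophages and microglia was tested in a single fit over 32 sums. It was called for 2 of the 7 genes, beside 12.6% of 11486 genes. For Itgax the change was lower in macrophages by 3.36 ± 0.94 on the log2 scale (difference -3.36, edgeR adjusted p = 0.0221). For Mertk the difference was -2.57 ± 0.81 (adjusted p = 0.0363). Microglial Itgax went from 5.50 ± 1.37 (SD, n = 3) to 39.3 ± 12.3 CPM (n = 3), and macrophage Itgax from 32.3 ± 17.1 (n = 4) to 22.3 ± 15.1 CPM (n = 4). Microglial Mertk went from 32.0 ± 7.73 to 131 ± 11.9 CPM and macrophage Mertk from 55.9 ± 47.3 to 32.0 ± 27.7 CPM. The Mertk call was lost without any of 7 libraries and the Itgax call without any of 5 of the 24 libraries that gave these sums (adjusted p up to 0.153 and 0.133). For both genes these include D1_mixed 1, D1_mixed 2, D10_mixed 1, D10_mixed 2 and D1_infiltrating 2, and for Mertk also D1_mixed 3 and D10_infiltrating 2. For Trem2 (0.21), Axl (-0.48), Tyrobp (-0.86), Cst7 (-0.91) and Clec7a (-2.38, adjusted p = 0.106) the difference was not called, which does not show that the 2 cell types changed alike. Macrophages and microglia of 1 library come from the same mice. With the library as a block, over the 16 sums of libraries that held both types, 3 genes were called, with differences of -4.03 for Mertk, -3.93 for Itgax and -2.62 for Clec7a (edgeR adjusted p = 3.17e-12, 4.32e-06 and 1.16e-07). Trem2 turned from 0.21 to -1.02 and was called in neither fit (adjusted p = 0.0724 with the block). The same block called 1538 genes higher and 1153 lower, against 741 and 703 without it.

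**Figure D4:**
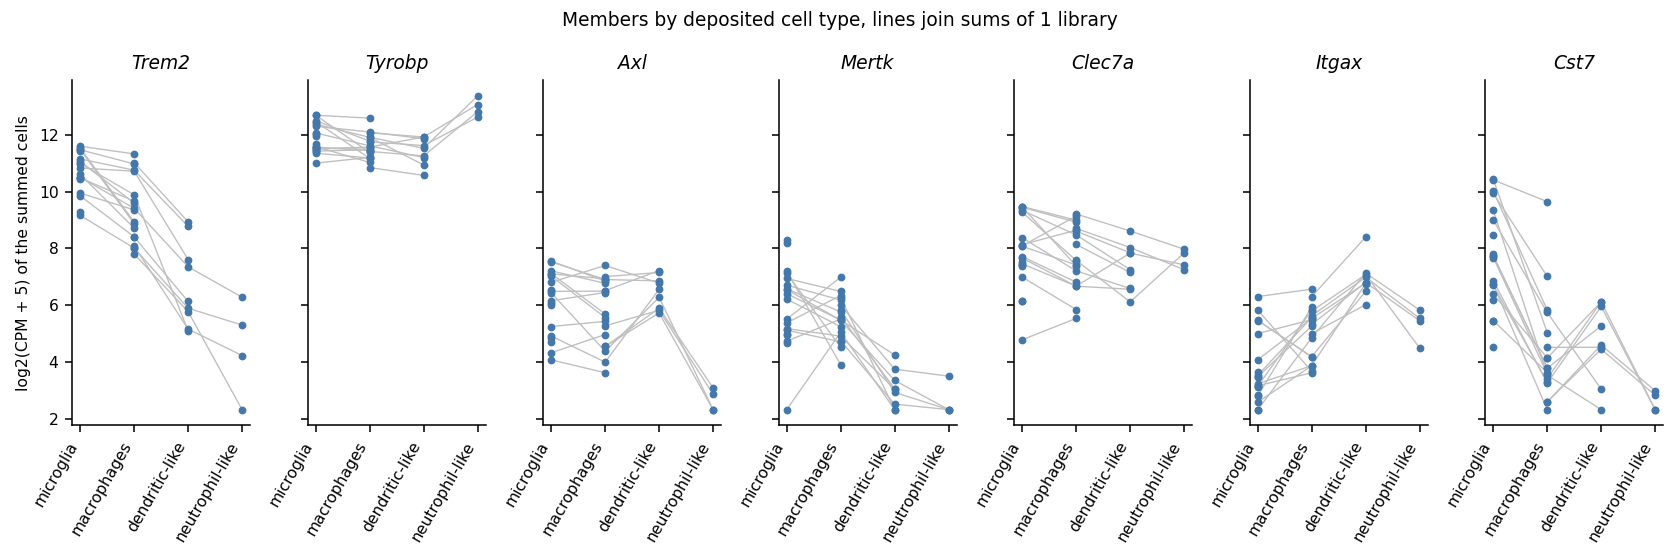
Levels of the 7 genes by cell type as log2(CPM + 5), 1 point per library and type with at least 20 cells, lines joining the types of 1 library. Trem2 and Cst7 are highest in microglia, Itgax in dendritic-like cells and Tyrobp in neutrophil-like cells, which is a description with no test because the types were made from these cells' expression.

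Across cell types the order of levels was compared within libraries, as a description. In 14 libraries with both types, macrophages had more Trem2 than microglia in 0, more Cst7 in 0, more Clec7a in 3, more Mertk in 4, more Tyrobp in 4, more Axl in 5 and more Itgax in 11. In 9 libraries with dendritic-like cells and macrophages, dendritic-like cells had more Itgax in 9, more Axl and more Cst7 in 7 each, more Tyrobp and more Clec7a in 1 each, and more Trem2 and more Mertk in 0. Itgax, a marker by which dendritic cells are usually sorted, had 59.7 to 333 CPM in the dendritic-like sums of these 9 libraries, and Mertk 0 to 14.0 CPM. The neutrophil-like sums of 4 libraries had 10578, 7182, 6306 and 8577 CPM of Tyrobp, above the macrophages of the same library in all 4. They had at most 72.8 CPM of Trem2, 6.32 of Mertk, 3.51 of Axl and 2.92 of Cst7.

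In dendritic-like cells edgeR called none of the 6 tested members from D1 to D10 and 0% of 7114 genes. At an unadjusted p below 0.05 there were 725 genes, 2 of them members. DESeq2 called 0 of the members. Trem2 had 30.8 and 54.4 CPM at D1 and 485 and 190 at D10 (3.40 ± 0.94, adjusted p = 0.190), and Axl 51.5 and 54.4 at D1 and 137 and 105 at D10 (1.49 ± 0.39, adjusted p = 0.155). In both genes the D10 libraries were above the D1 libraries. The summed microglia markers in these cells were 247 and 368 CPM at D1 and 756 to 1565 CPM at D10, and their part in the 2 changes was not tested. Without D3_mixed 3, Trem2 was called at an adjusted p of 0.0316, and with no low-count filter both genes were (3.30 and 1.39, adjusted p = 3.05e-10 and 0.0417).

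The reporter sort gave a comparison that does not depend on expression-based cell types. All cells of 7 infiltrating and 5 resident libraries were summed, with time, sex and sort as terms. Only D2, D3 and D10 held both sorts, so the Ctrl, D1 and D21 libraries do not contrast the sorts directly. Ranges over all libraries of a sort therefore mix time points, with Ctrl among the resident and D1 and D21 among the infiltrating libraries alone. The test called 3 of the 7 genes, beside 10.7% of 10074 genes. Cst7 was lower in the infiltrating libraries (-3.69 ± 0.86, edgeR adjusted p = 0.029), as was Trem2 (-2.13 ± 0.50, adjusted p = 0.0308), while Itgax was higher (1.58 ± 0.34, adjusted p = 0.0224).

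Cst7 had 2.42 to 88.8 CPM over the 7 infiltrating libraries with a median of 20.6, and 38.8 in the Ctrl, 165 in the D2, 56.6 and 135 in the D3 and 943 in the D10 resident library. At D10 the infiltrating values were 20.6 and 53.2 against 943. Trem2 had 176 to 221 CPM in the infiltrating libraries of D1 to D3 and 1893, 1143 and 816 at D10 and D21, against 1122 to 2569 in the resident libraries. At D10 both infiltrating libraries were below the resident one. Itgax had 30.4 to 195 CPM with a median of 50.4 in the infiltrating libraries and 3.78 to 44.0 in the resident ones, and the ranges overlapped. All 3 calls were lost when D3_conflict 1, which held 8 microglia among 3800 cells, was added as a resident library (edgeR adjusted p 0.108 to 0.118). That fit called 0 of all 9992 genes, and its values were -3.48 for Cst7, -2.04 for Trem2 and 1.48 for Itgax. The Trem2 (-1.55) and Itgax (1.02) calls were also lost with the pool as a term. With D2_infiltrating 1 taken as male, Cst7 was not called (-3.60, adjusted p = 0.0572), while Trem2 and Itgax were. Leaving out D2_infiltrating 1, D2_resident 1, D3_resident 1, D3_resident 2 or D10_infiltrating 2 ended all 3 calls. Leaving out D3_infiltrating 1 ended those of Trem2 and Itgax, and leaving out D10_infiltrating 1 or D10_resident 1 that of Cst7. Mertk (-1.28, adjusted p = 0.106), Axl (-0.49), Tyrobp (-0.36) and Clec7a (-0.21) were not called, although Mertk was with DESeq2 (-1.30) and without D1_infiltrating 1 or D1_infiltrating 2. The sorts also differed in make-up: microglia were 641 of 775 cells in D10_resident 1 and 10 of 608 and 36 of 183 in the D10 infiltrating libraries. The part of make-up in the differences was not tested.

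**Figure D5:**
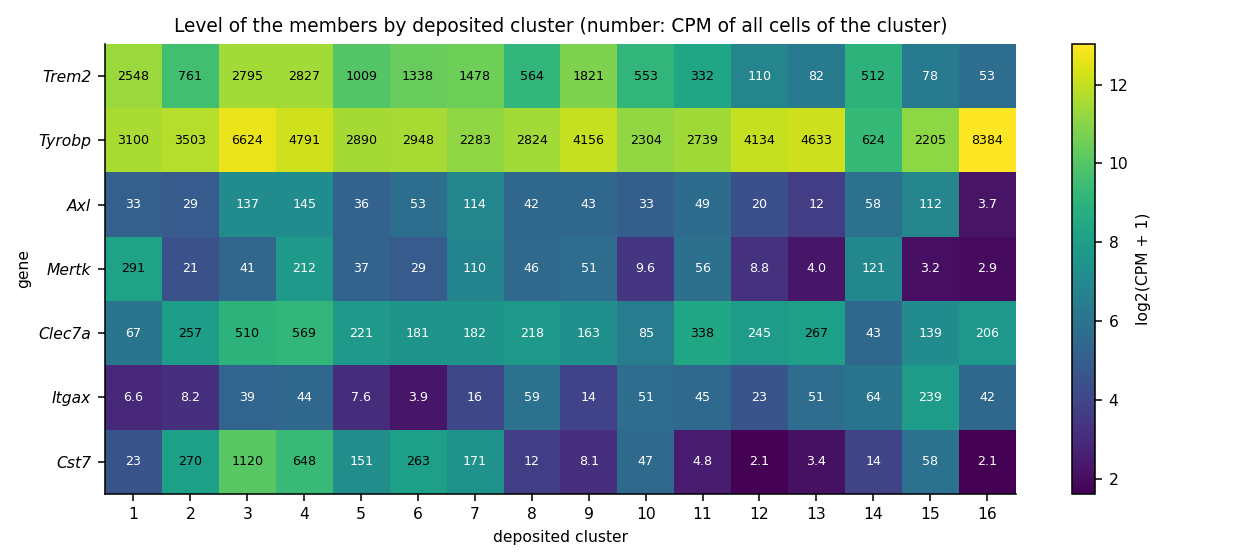
CPM of the 7 genes in the 16 deposited clusters, cells of all libraries pooled, with the CPM printed in each field and the colour showing log2(CPM + 1). Clusters 3 and 4 have high pooled values of Trem2, Axl, Clec7a and Cst7, over all time points, while Mertk is highest in cluster 1 (the control cells) and Itgax in cluster 15 (the dendritic-like cells).

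Over the 16 deposited clusters, which were made from the same expression values and are described without a test, pooled Cst7 was highest in cluster 3 (1120.2 CPM) and cluster 4 (648 CPM), both of microglia from injured cords. Pooled Clec7a was also highest there, at 510.3 and 569 CPM. The clusters differ in their mix of time points and libraries, so D10 was also read library by library, over sums of at least 20 cells. Cluster 3 had the most Cst7 of the microglia clusters in D10_resident 1 (1948 CPM), D10_mixed 1 (1393) and D10_mixed 2 (1576). Cluster 4 had 1049.7, 739 and 690.1 CPM in the same libraries, and cluster 6 had 1059, 1093 and 1138. In the infiltrating D10 libraries, where 60 of 63 and 67 of 83 cells of cluster 3 carried the macrophage code, Cst7 in cluster 3 was 26.6 and 227 CPM. Clec7a was highest in cluster 5 in both mixed libraries (769 and 1054 CPM) and in cluster 2 in the resident one (747 CPM), so the pooled order of Clec7a did not hold within D10. Mertk separated these clusters, with 41.4 CPM in cluster 3 and 212 CPM in cluster 4, against 291 CPM in the control cluster 1. Depth differed too, with medians of 2272, 5827 and 3802 UMIs per cell in clusters 3, 4 and 1, and its part was not tested. Itgax was highest in cluster 15 (239 CPM), the dendritic-like cells, and reached 39.2 and 43.9 CPM in clusters 3 and 4. Tyrobp was highest in the neutrophil-like cluster 16 (8384 CPM, and 7509.7 without D3_conflict 1), followed by cluster 3 (6624 CPM). Cluster 9, the macrophage cluster with the most Trem2 (1821 CPM), had 8.10 CPM of Cst7.

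Cluster make-up and level within a cluster both changed with time. The mean share of microglia in cluster 5 went from 72.1% at D1 to 3.84% at D10, that in cluster 3 from 1.05% to 48.0% and that in cluster 4 from 0.465% to 34.1%. Within cluster 5, mean Cst7 stood at 57.9 CPM on D1, 124 on D2 and 205 on D3, and it had reached 1122 on D10. In cluster 6 it went from 136 CPM on D2 and 204 on D3 to 1097 on D10, and in cluster 4 from 211 and 266 to 826 CPM over the same days. Cst7 thus had a higher mean at D10 than at D3 inside each of these clusters as well as over all microglia, although cluster 4 rests on 1 library at D2 and 1 at D3. Mertk in cluster 4 had means of 199.7 to 232 CPM from D2 to D21, whereas in clusters 2, 3, 5 and 6 its means were 15.3 to 74.3 CPM.

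Likeness to other genes was measured as Pearson's correlation of log2(CPM + 5) over the 17 microglia sums, among 5344 genes with a mean of at least 20 CPM. It is given without a p, since the sums share pools, depth and time course. The patterns most like Cst7 were those of Ank, Gm1673 and Apoc4 (all 0.94), and those most like Clec7a were Cox6a2, Ank (both 0.92) and Cd52 (0.91). Trem2 was most like Itm2b (0.95), C1qc (0.94) and Relb (0.91), and Tyrobp most like Pld3, Npc2 (both 0.93) and Ctsa (0.91). Axl was most like Cd9 (0.86), Pdcd1 and Apoe (both 0.81). Itgax was most like Il4i1 (0.89), Chst2 (0.85) and Plau (0.80), and Mertk most like Ubn2, Snx29 (both 0.98) and Maml3 (0.97).

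Among the 7 genes themselves, Cst7 and Clec7a were the most alike in microglia (0.87), followed by Cst7 and Tyrobp (0.83), and Axl and Clec7a (0.77). Trem2 had a correlation of 0.74 with its adaptor Tyrobp and of 0.71 with Mertk. Mertk had 0.34 with Axl, the other TAM receptor, and -0.00432 with Cst7. Over all 51 sums of all cell types, Trem2 was most like the complement genes C1qc (0.94), C1qb (0.94) and C1qa (0.92), Itgax most like the MHC class II genes H2-Aa and H2-Eb1 (both 0.78), and Tyrobp most like Hcst (0.76). In these sums Trem2 and Tyrobp had a correlation of 0.03, against 0.74 within microglia.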

How the data were processed

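Counts of unique molecules (UMIs) per gene and cell were used as the authors deposited them, with the deposited table of cluster, cell type code, sequencing pool and percent of mitochondrial counts per cell. Per the submitters' processing notes, Cell Ranger 3.1.0 and the builds GRCm38 and mm10 were used, with no role stated. The deposited percent values were not used in any result, nor were the authors' cell filters changed. Doublets were not called, and no correction for free RNA was made. Cell sums equalled the deposited totals in 30958 of 30958 cells.

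UMIs were summed per library and cell type (at least 20 cells). The sums were fitted with edgeR 4.0.16 in R 4.3.3 (TMM scaling, filterByExpr, glmQLFit and glmQLFTest, time and sex as terms), and p-values are 2-sided with Benjamini-Hochberg adjustment over all genes tested. DESeq2 1.42.0 was an alternative. CPM, shares and correlations were computed in Python 3.11.15 with numpy 2.4.6, pandas 2.3.3 and scipy 1.17.1. Shares are the expected share of cells with a UMI after thinning to 2000 UMIs. The fits were tested on simulated data.

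The members, gene lists and markers were chosen with earlier results of these data known. In each list the 2 called genes with the largest rise and the 2 with the largest fall could be named, and for likeness the 3 highest correlations. No set test was run. Proteins are not analysed here. Alternatives were other scalings, no filter, at least 50 cells, fewer clusters, pool or sort as a term, mixed libraries alone, and each library left out. Several, the scaling by total count, the omission of clusters 2 and 3 and the other sex for D2_infiltrating 1 among them, were chosen after seeing the data.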

Additional observations from a re-analysis of the deposited data

Results flagged for a closer look

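In D1 macrophages, Trem2 in D1_mixed 1 (334.7 CPM) stood apart from the other 3 libraries, which had 253 to 266 CPM. The gap was 0.843 of the range, above Dixon's 95% critical value for 4 samples. Of 21 groups of values examined in this way this was the 1 found, and chance alone gives about 5%.

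The change from D1 to D10 differed between macrophages and microglia for Mertk (-2.57) and Itgax (-3.36, both macrophages minus microglia on the log2 scale), in the test of the difference itself over 32 sums. Microglial Mertk and Itgax had higher means at D10 than at D1, and the macrophage means were lower.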

How the results depend on the processing

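The number of members called moved by more than 1.5 times under these alternatives; unless a value shows it, the cause was not tested. With the total count alone, D1 microglia had 2 calls. With the pool as a term, microglia had 2 at D3 and 0 from D3 to D10, where 0 of all 10801 genes were called and Tyrobp (-0.0467) and Itgax (-0.266) reversed. Macrophages at D21 had 0 and the sort had 1 with that term, and microglia at D1 and D21 could not be fitted. With mixed libraries alone, microglia had 2 (D1), 1 (D3), 1 (D10) and 2 (D10 against D3), and macrophages 2 (D3 and D21) and 3 (D10 against D3). Without clusters 6, 7 and 10, microglia from D3 to D10 had 2 and macrophages at D21 had 3. Without cluster 2, microglia from D3 to D10 had 2 and macrophages at D10 had 1. Without clusters 2 and 3, macrophages had 0 at D10 and D21. At least 50 cells gave 1 in macrophages at D10. DESeq2 gave 3 in macrophages at D21, no filter 3 there and 2 in dendritic-like cells, and a sort term 2 in macrophages at D21. D3_conflict 1 added as resident gave 0 for the sort, where 0 of all 9992 genes were called.

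With 1 library left out, the count ran from 1 to 4 (D1), 1 to 3 (D2), 2 to 5 (D3), 3 to 6 (D10) and 2 to 6 (D10 against D3) in microglia, 0 to 3 in macrophages at D10 and at D21, 0 to 1 in dendritic-like cells, 0 to 4 for the sort and 0 to 2 for the difference. Of 600 called single-gene values under these omissions 502 stayed called and 98 did not. Same-numbered libraries did not deviate together (r from -0.198 to 0.122 over 7 pairs). With the replicate block, male mixed microglia had 3 calls from D1 to D3 and 3 from D3 to D10, and without the replicate block 2 and 2.

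Thinning to 1000 UMIs moved 77 of 126 shares by more than 1 SD, and no thinning moved 88. Depth limits Itgax in early microglia, where 0 UMIs were counted in D2_mixed 2 and D3_mixed 2 and 1 in D3_mixed 1 and D3_resident 1.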

Other observations

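The D3 library whose labels contradict each other (D3_conflict 1) held macrophages with 415 CPM of Trem2, 3646 of Tyrobp, 41.3 of Axl, 40.9 of Mertk, 185 of Clec7a, 37.3 of Itgax and 6.30 of Cst7. Its neutrophil-like cells had 9590.1 CPM of Tyrobp, the adaptor.

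Some sums were outside the comparisons over time. The 36 microglia of D10_infiltrating 2 had 642 CPM of Cst7 and 1819 of Trem2, and the 41 of D21_infiltrating 1 had 2034 of Trem2 and 31.2 of Mertk. Among the 134 macrophages of D10_resident 1, Trem2 had 2008 CPM, Axl 117 and Cst7 27.8, and among the 185 of D2_resident 1, Trem2 had 415 and Cst7 6.94.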
